A study of Bos taurus with 4 samples.

Results

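A set of 10 genes known as imprinted in mammals, IGF2, IGF2R, PEG3, PEG10, MEST, SNRPN, PLAGL1, PHLDA2, CDKN1C and NNAT, was examined in polyadenylated RNA of bovine (Bos taurus) embryos. Members were taken by symbol, and all 10 were present in the deposited table, with 18 of its 14517 transcript rows. The embryos were collected 3 days after insemination, at the 8- to 16-cell stage. Control embryos (NC, n = 2 libraries) had received negative control small interfering RNAs (siRNAs) as zygotes, and knockdown embryos (KDM5_KD, n = 2 libraries) siRNAs against KDM5A, KDM5B and KDM5C. Every embryo of the series was therefore injected. KDM5 enzymes demethylate lysine 4 of histone H3. The comparison asks how RNA levels differ when they are depleted. For the second knockdown library the title and the treatment entry name different siRNAs, KDM5 in the former and KDM6 in the latter, and it was grouped by its title. The labels do not say how many embryos each library pooled or whether the libraries came from separate cultures. The p-values then measure only the spread between these libraries, which may be technical.

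An imprinted gene is transcribed mainly from the copy inherited from 1 parent, because a control region nearby carried DNA methylation from the egg or the sperm and keeps it through the genome-wide demethylation of the early embryo. Paternally expressed members of this class often favour growth of the fetus and placenta, and maternally expressed members often restrain it. In cattle, disturbed imprinting after embryo culture or cloning is associated with large offspring. The FPKM values add both parental copies together, so which copy was active was not measured here. Fewer cells with a transcript cannot be told apart from less of it per cell. Nor can RNA carried over from the oocyte be told apart from RNA made by the embryo.

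Levels are given as FPKM, fragment numbers divided by the length of the transcript and by the size of the library, and differences as log2 fold changes of KDM5_KD against NC on the log2(FPKM + 1) scale, which understates those of low transcripts. The FPKM summed to between 283347 and 322267 per library, and read counts are not known, so the number of libraries sets the precision. From the steps between low values, the depth of NC replicate 1 was 0.681 times that of NC replicate 2, which in turn was 1.25 and 1.28 times that of the knockdown libraries. The siRNA target KDM5A had 28.4 and 27.1 FPKM in NC and 10.5 and 10.1 in KDM5_KD (adjusted limma p of 0.0333). KDM5C had 28.1 and 40.6 FPKM against 15.1 and 17.8 (adjusted limma p of 0.123), and KDM5B was not analysed here. KDM6A, the target family named by the odd treatment entry, was at 9.29 FPKM in that library and between 7.63 and 11.3 FPKM in the other 3. Among markers of the tissue, the oocyte list had 16 of 16 rows tested with a positive difference, as did 62.6% of all transcripts tested. Of 7 trophectoderm markers 6 were tested and none passed, with 3 positive and 3 negative differences. TFAP2C lay between 152 and 182 FPKM. KRT8, with the largest difference of this list, had 2.86 and 1.10 FPKM in NC against 18.2 and 9.23 FPKM in KDM5_KD (adjusted limma p of 0.106). KRT18 had 1.67 and 2.58 FPKM against 1.42 and 1.76 FPKM (log2 fold change -0.26), and GATA3 had a log2 fold change of -0.29. IFNT2, which is switched on later, was at most 0.0502 FPKM. The highest value of a sperm marker was 1.09 FPKM (TNP1).

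In the control embryos the imprinted genes spanned a wide range of levels. PHLDA2 was by far the most abundant, with a mean of 153 FPKM, above 97.7% of all rows of the table when averaged over the 4 libraries. PLAGL1 (22.9 FPKM), SNRPN (13.6 FPKM) and IGF2R (8.66 FPKM) followed, and the NC libraries of each of these 4 genes lay apart from those of the next. PEG10 (5.30 FPKM), MEST (5.08 FPKM), CDKN1C (4.07 FPKM) and PEG3 (3.25 FPKM) came next, and neighbours in this stretch of the order overlapped. NNAT (1.36 FPKM) and IGF2 (0.213 FPKM), each summed over its rows, were lowest. In the knockdown embryos PEG10 (9.34 FPKM) and MEST (8.56 FPKM) stood above IGF2R (7.30 FPKM), PLAGL1 (15.2 FPKM) overlapped with SNRPN (13.8 FPKM), and NNAT (4.61 FPKM) stood above CDKN1C (3.40 FPKM), with which it overlapped.

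**Figure D1:**
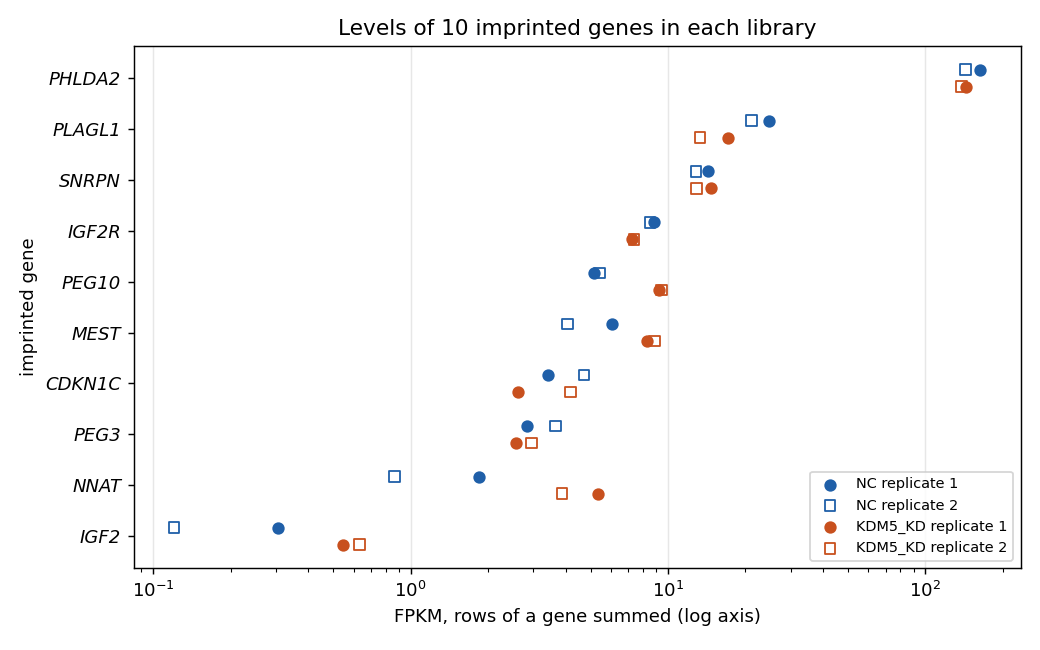
Level of each imprinted gene in each library, in FPKM on a log axis, with the rows of a gene summed; blue marks are NC and orange marks KDM5_KD, filled for replicate 1 and open for replicate 2. PHLDA2 lies above 138 FPKM in every library and IGF2 below 1 FPKM, while PEG10, MEST and NNAT have both orange marks to the right of both blue ones.

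Of the genes, 9, with 10 rows, had a mean of at least 1 FPKM over the 4 libraries and entered the test. None of the 10 rows passed an adjusted limma p of 0.05, and 0.279% of all 8970 transcripts tested did, 0.19% as higher and 0.0892% as lower. At an unadjusted limma p under 0.05 there were 4 of the 10, against 17.5% of all transcripts. Of these, 3 were higher (14.3% of all transcripts) and 1 was lower (3.12%). The groups did not overlap for 6 of the 10 rows, against 50.7% of all transcripts. Both knockdown libraries lay above both NC libraries for 4 rows (35.1% of all transcripts) and below them for 2 rows (15.6%). The median log2 fold change of the 10 rows was -0.05, and that of all transcripts tested was 0.09. The latter depended on level. By quartile of mean FPKM it was 0.25 in the lowest, then 0.16 and 0.06, and -0.02 in the highest. These counts describe the rows that passed the level filter. The row NM_178323 of NNAT passed it only through its knockdown values. That row is among the 3 higher ones with an unadjusted limma p under 0.05 and among the 4 entirely above the controls. The other NNAT row, also among these 4, is counted separately.

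IGF2, insulin-like growth factor 2, is a growth factor of the fetus and placenta and the ligand of the IGF1 receptor. It had 7 rows, none of which reached the level filter. In 5 of them no library exceeded 0.00251 FPKM. The row NM_001367627 stood at 0.302 and 0.0420 FPKM in NC against 0.544 and 0.340 FPKM in KDM5_KD. The row NM_001367631 was at 0.0768 FPKM in NC replicate 2 and 0.290 FPKM in KDM5_KD replicate 2, and essentially at 0 in the other 2 libraries. Summed over rows, IGF2 was at 0.305 and 0.121 FPKM in NC and 0.546 and 0.632 FPKM in KDM5_KD. The groups did not overlap, but at this level the rows that carried the signal changed from library to library, and the sum was below the level filter. In a fit without the level filter NM_001367627 had a log2 fold change of 0.30 (SE 0.144, adjusted limma p of 0.410).

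IGF2R, the cation-independent mannose 6-phosphate receptor, carries lysosomal enzymes and binds IGF2 for degradation. It had 8.81 and 8.52 FPKM in NC and 7.22 and 7.39 FPKM in KDM5_KD. Both knockdown libraries were below both controls, at 84.3% of the NC mean. With a log2 fold change of -0.22 (SE 0.169) it did not pass (adjusted limma p of 0.556).

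Partners of the IGF ligand and receptor were read from the same fit as part of a list of 43 genes that act with the imprinted ones. Of these, 33 rows were tested and none passed, with a median log2 fold change of 0.05 and unadjusted limma p under 0.05 for 7 higher and 1 lower, against 14.3% and 3.12% of all transcripts. IGFBP5, which binds IGFs outside the cell, had the largest difference of the list. It had 89.7 and 31.0 FPKM in NC and 266 and 149 FPKM in KDM5_KD, a log2 fold change of 1.89 (SE 0.505, adjusted limma p of 0.162). IGFBP7 had 45.4 and 11.2 FPKM against 102 and 63.8 FPKM (1.78, SE 0.598, adjusted limma p of 0.218). In both, NC replicate 1 was well above NC replicate 2. The other IGFBP genes tested did not all rise. IGFBP6 had a log2 fold change of 0.90, IGFBP3 one of -0.02 and IGFBP2 one of -0.43. IGFBP2 had 35.9 and 30.2 FPKM in NC and 26.9 and 21.6 FPKM in KDM5_KD. The IGF1 receptor gene IGF1R had 10.6 and 7.08 FPKM in NC and 11.4 and 16.7 FPKM in KDM5_KD, and IGF1 was listed at 0 in every library. IGF1R and IGF1 were picked after their values were seen.

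PLAGL1 and PEG3 are paternally expressed zinc finger genes. PLAGL1 is a transcription factor that restrains cell division and is known to regulate other imprinted genes. It had 24.7 and 21.2 FPKM in NC and 17.2 and 13.3 FPKM in KDM5_KD. Both knockdown libraries were lower than both controls, at 66.4% of the NC mean. Its log2 fold change of -0.57 (SE 0.180) lay below that of all but 1.54% of the transcripts tested, but did not pass (unadjusted limma p of 0.0198, adjusted p of 0.206). It was -0.39 without KDM5_KD replicate 2, whose treatment entry names KDM6, and -0.74 without KDM5_KD replicate 1. PEG3, which controls fetal growth and maternal behaviour in mice, had 2.85 and 3.65 FPKM in NC and 2.57 and 2.95 FPKM in KDM5_KD. The groups overlapped (log2 fold change -0.17, SE 0.212, adjusted limma p of 0.726).

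CDKN1C and PHLDA2 are maternally expressed neighbours. CDKN1C, or p57, inhibits cyclin-dependent kinases, and its loss is a cause of overgrowth in humans. It had 3.42 and 4.71 FPKM in NC and 2.62 and 4.17 FPKM in KDM5_KD. In each group replicate 2 was the higher library, and the groups overlapped (log2 fold change -0.21, SE 0.262, adjusted limma p of 0.725). Without KDM5_KD replicate 1 the sign turned, at 0.04. PHLDA2, a small lipid-binding protein that limits placental growth, had 163 and 143 FPKM in NC and 144 and 138 FPKM in KDM5_KD. The lower control library thus lay within the knockdown range (log2 fold change -0.11, SE 0.120, adjusted limma p of 0.678).

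Paralogs not known to be imprinted were set beside them. PHLDA1 had 7.34 and 3.22 FPKM in NC and 11.7 and 15.8 FPKM in KDM5_KD, a log2 fold change of 1.30 (SE 0.348, adjusted limma p of 0.163). CDKN1A, or p21, a p53 target that inhibits the same kinases as CDKN1C, had 16.4 and 12.3 FPKM against 24.5 and 26.1 FPKM (0.79, SE 0.178, adjusted limma p of 0.133). These paralogs were named because their groups did not overlap, and the difference from PHLDA2 and CDKN1C was not tested. CDKN1B, or p27, had 14.7 and 15.1 FPKM in NC and 15.1 and 16.4 FPKM in KDM5_KD, and its groups overlapped (log2 fold change 0.07). The D-type cyclin gene CCND1, on which the kinases depend, had 1.71 and 0.891 FPKM in NC and 2.61 and 4.60 FPKM in KDM5_KD (0.99, SE 0.305, adjusted limma p of 0.196).

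PEG10 is a paternally expressed gene derived from a retrotransposon, with overlapping reading frames, and is needed to form the placenta. Its main row, NM_001172519, had 5.17 and 5.19 FPKM in NC and 8.81 and 9.44 FPKM in KDM5_KD. The knockdown mean was 1.76 times the NC mean, and the libraries within each group lay close together. The log2 fold change of 0.71 (SE 0.175) had an unadjusted limma p of 0.00655 and did not pass after adjustment (adjusted p of 0.147). It was higher than that of 90.9% of all transcripts tested. The second row, NM_001109815, was at 0.235 FPKM in NC replicate 2 and 0.428 FPKM in KDM5_KD replicate 1 and near 0 in the other 2 libraries, so nearly all signal was in the main row.

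MEST, or PEG1, encodes a protein of the alpha/beta hydrolase fold and is a marker of mesoderm. It had 6.08 and 4.08 FPKM in NC and 8.27 and 8.86 FPKM in KDM5_KD. Both knockdown libraries were higher, by 1.69 times on the means, and the control libraries differed from each other more than the knockdown libraries did. Its log2 fold change was 0.67 (SE 0.224, unadjusted limma p of 0.0238, adjusted p of 0.216). It was 0.44 after quantile normalization and 0.43 without NC replicate 2.

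NNAT, neuronatin, is a small paternally expressed proteolipid of the endoplasmic reticulum, best known from the developing brain, and its gene lies inside an intron of BLCAP. Its row NM_178323 was at 0.00463 and 0.00685 FPKM in NC against 2.29 and 1.84 FPKM in KDM5_KD. That row was practically empty in both controls and filled in both knockdown libraries. On the log2(FPKM + 1) scale the difference was 1.60 (SE 0.206), with the lowest adjusted p among the imprinted rows (adjusted limma p of 0.0579). Over the alternatives its adjusted limma p ranged from 0.0318 to 0.267. It passed with robust eBayes (0.0387) and without NC replicate 1 (0.0318), and it was at 0.167 without the level filter, 0.246 without KDM5_KD replicate 1 and 0.267 without KDM5_KD replicate 2. With a pseudocount of 0.1 the difference was 4.35 (adjusted limma p of 0.0759). The other row, NM_001201324, had 1.84 and 0.858 FPKM in NC and 3.07 and 2.03 FPKM in KDM5_KD. Its highest control was close to its lowest knockdown library (log2 fold change 0.61, SE 0.290, adjusted limma p of 0.345), and the difference was 0.31 after quantile normalization, 0.93 with a pseudocount of 0.1, and 0.30 without NC replicate 2.

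The rows of NNAT are estimates that divide the same reads between transcripts. NM_178323 held 0.250% and 0.792% of the summed NNAT level in NC and 42.7% and 47.5% in KDM5_KD. Summed over both rows, NNAT had 1.85 and 0.865 FPKM in NC and 5.35 and 3.87 FPKM in KDM5_KD. The summed knockdown mean was 3.40 times the NC mean, with a log2 fold change of 1.27 (SE 0.282, adjusted limma p of 0.120 with all rows summed by symbol). How the reads were divided was not tested, so the contrast within NNAT rests on the authors' estimation as well as on the libraries.

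**Figure D2:**
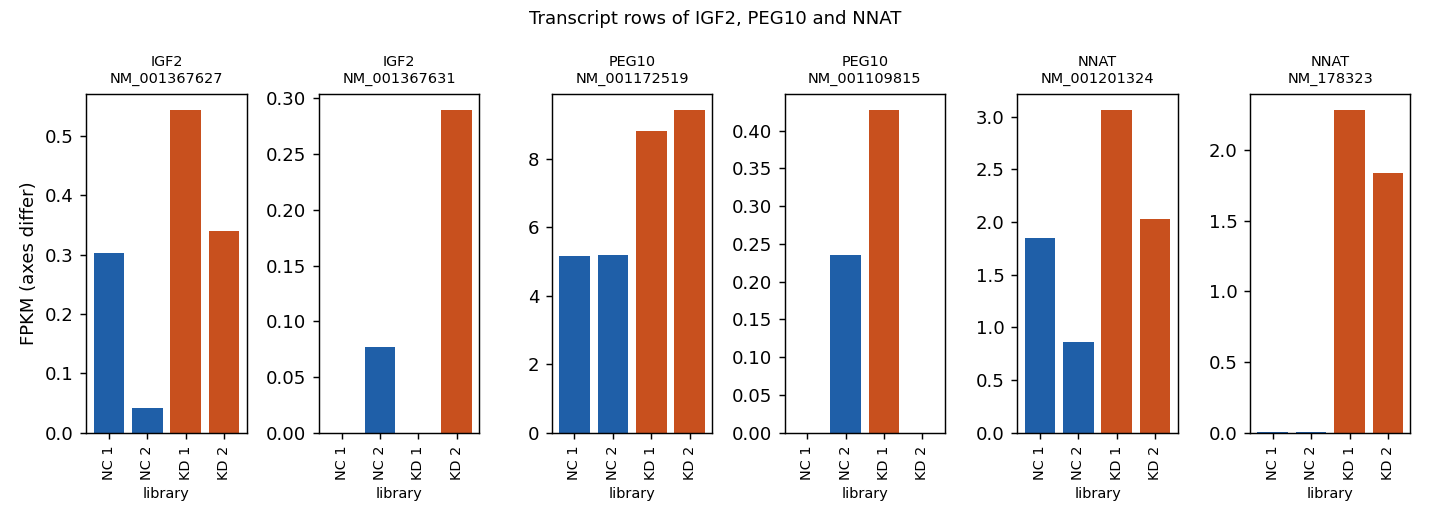
FPKM of single transcript rows of IGF2 (its 2 highest), PEG10 and NNAT in each library, with a separate axis for each row; bars are single libraries, blue for NC and orange for KDM5_KD (KD). The NNAT row NM_178323 is near 0 in both NC libraries and reaches 2.29 and 1.84 FPKM after knockdown, and the main PEG10 row is even within each group.

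SNRPN encodes a core protein of the spliceosome (SmN) and shares a paternally expressed transcript with SNURF. It had 14.3 and 12.9 FPKM in NC and 14.7 and 12.9 FPKM in KDM5_KD. The groups overlapped almost fully, with a log2 fold change of 0.02 (SE 0.161, adjusted limma p of 0.957). Its sign turned under median-ratio scaling, quantile normalization and a common sum, so no direction can be given. Quantile normalization shifted the median of all transcripts by -0.14 and the common sum by -0.10. With a common sum taken without microRNA rows the shift was -0.02, and SNRPN was at 0.003. The paralog SNRPB, the general form of the same spliceosomal protein, was far more abundant, at 437 and 424 FPKM in NC and 366 and 338 FPKM in KDM5_KD (log2 fold change -0.29, SE 0.111, adjusted limma p of 0.266).

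**Figure D3:**
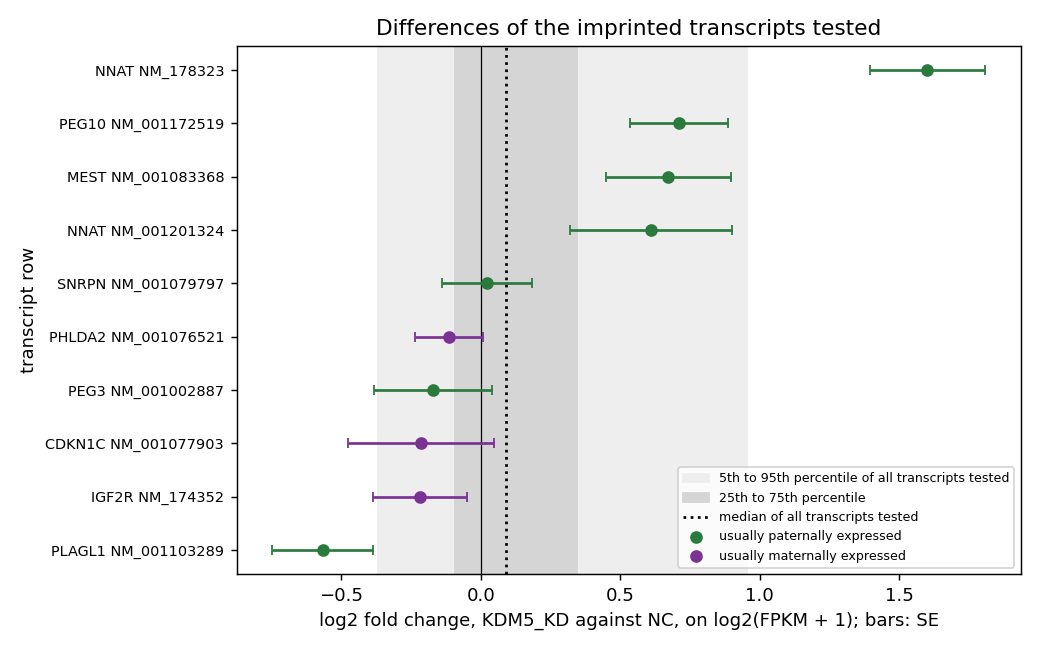
Log2 fold change (KDM5_KD against NC, on the log2(FPKM + 1) scale) of each of the 10 imprinted rows tested, with its SE; grey bands give the 5th to 95th and 25th to 75th percentiles of all 8970 transcripts tested and the dotted line their median of 0.09. The NNAT row NM_178323, at 1.60, lies above the 95th percentile of 0.96, and PLAGL1, at -0.57, below the 5th percentile of -0.37.

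Sorted by the parental copy each gene usually expresses, the 3 maternally expressed genes, IGF2R, CDKN1C and PHLDA2, all had small negative values, between -0.22 and -0.11. That of CDKN1C turned to 0.04 without KDM5_KD replicate 1. The 7 rows of paternally expressed genes were mixed, with 5 positive values and 2 negative ones, from -0.57 for PLAGL1 to 1.60 for NNAT. Among the 5 were SNRPN, whose sign depends on the scaling, and both rows of NNAT, which divide the same reads. The value of 1.60 belongs to the NNAT row that passed the level filter only through its knockdown values. The difference between these classes was not tested.

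Most markers of follicular cells had higher values in the knockdown libraries, as NNAT, MEST and PEG10 did. Of 24 listed cumulus and granulosa markers all had a row and 16 were tested. None passed, 13 of the 16 had knockdown libraries entirely above the controls (35.1% of all transcripts), and their median log2 fold change was 1.11. Of the 13, GREM1, INHA, COL1A2 and VCAN passed the level filter only through their knockdown values. Summed over all 24 listed markers, tested or not, the level was 106 and 60.5 FPKM in NC and 227 and 217 FPKM in KDM5_KD. In this sum NC replicate 1 was 1.75 times NC replicate 2. The defining genes CYP19A1 and FSHR did not exceed 0.0602 FPKM in any library. Of the 16 differences 14 were positive and 2 negative, the latter in AMH and TNFAIP6. AMH, a granulosa hormone, had 2.78 and 1.12 FPKM in NC and 1.28 and 0.957 FPKM in KDM5_KD, and TNFAIP6 had a log2 fold change of -0.05. Among the positive ones, CYP11A1 had 8.41 and 3.79 FPKM in NC and 12.45 and 17.2 FPKM in KDM5_KD. LUM, with the lowest adjusted limma p of the list (0.061), had 4.02 and 5.12 FPKM against 23.8 and 15.6 FPKM. No rule set which of these markers are named. The broadly expressed VIM, which is a large part of the summed level, had 35.6 and 8.09 FPKM in NC and 84.6 and 98.1 FPKM in KDM5_KD. Between the same control libraries the ratio was 2.14 for NNAT and 1.49 for MEST but 0.997 for the main PEG10 row. Oocyte markers summed to 711 and 545 FPKM in NC and to 834 and 1093 FPKM in KDM5_KD, with a median log2 fold change of 0.42. The part of either list in the values of the imprinted genes was not tested.

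Imprinted genes lie in clusters, so up to 3 of the nearest genes with a row on either side of each were read out, a choice made after the data were seen. On 1 side of SNRPN there was only NDN. In all there were 52 such genes, of which 28 rows were tested and none passed. Their median log2 fold change was 0.09, equal to that of all transcripts. Unadjusted limma p was under 0.05 for 8 of the 28 (17.5% of all transcripts). Knockdown libraries lay entirely above the controls for 12 and entirely below for 5 (35.1% and 15.6%). COL1A2, near PEG10, had the largest difference (1.40, SE 0.319, adjusted limma p of 0.133). COL1A2 and SGCE, both among the 12, passed the level filter only through their knockdown values. In chromosomal order the PHLDA2 and CDKN1C cluster ran CARS1, NAP1L4, PHLDA2, CDKN1C, KCNQ1, TSSC4 and CD81. NAP1L4 had 10.8 and 10.7 FPKM in NC and 14.7 and 18.4 FPKM in KDM5_KD, and the potassium channel gene KCNQ1 had 2.02 and 2.63 against 4.48 and 5.49 FPKM. CD81, a tetraspanin, had 5.51 and 3.71 FPKM against 11.2 and 11.7 FPKM. These 3 genes had log2 fold changes of 0.57, 0.85 and 1.17 with adjusted limma p of 0.193, 0.157 and 0.107. CARS1 and TSSC4 had values of -0.11 and -0.33. Values of both signs thus stood side by side in this cluster, none of them past the threshold.

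COPG2, which lies next to MEST and overlaps it in other mammals, had 5.25 and 4.10 FPKM in NC and 7.03 and 8.57 FPKM in KDM5_KD, a log2 fold change of 0.64 beside 0.67 for MEST. Strand-specific counting is not stated, so reads of overlapping genes cannot be told apart. BLCAP, the host of NNAT, had 37.8 and 36.1 FPKM in NC and 36.5 and 34.1 FPKM in KDM5_KD, and its groups overlapped. SGCE, the other gene of the PEG10 control region, had 1.18 and 0.370 FPKM against 1.30 and 1.39 FPKM, and its NC libraries differed more than those of PEG10. APEG3, the antisense transcript of PEG3, was at 0.770 and 0.000159 FPKM in NC against 1.79 and 1.05 FPKM in KDM5_KD. Around SNRPN, the paternally expressed NDN had a log2 fold change of 0.07 and UBE3A one of 0.02. SNURF, which can share reads with SNRPN, had 0.29. Next to IGF2R, the antisense RNA AIRN was listed at 0 in 3 libraries and at 0.142 FPKM in KDM5_KD replicate 2.

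**Figure D4:**
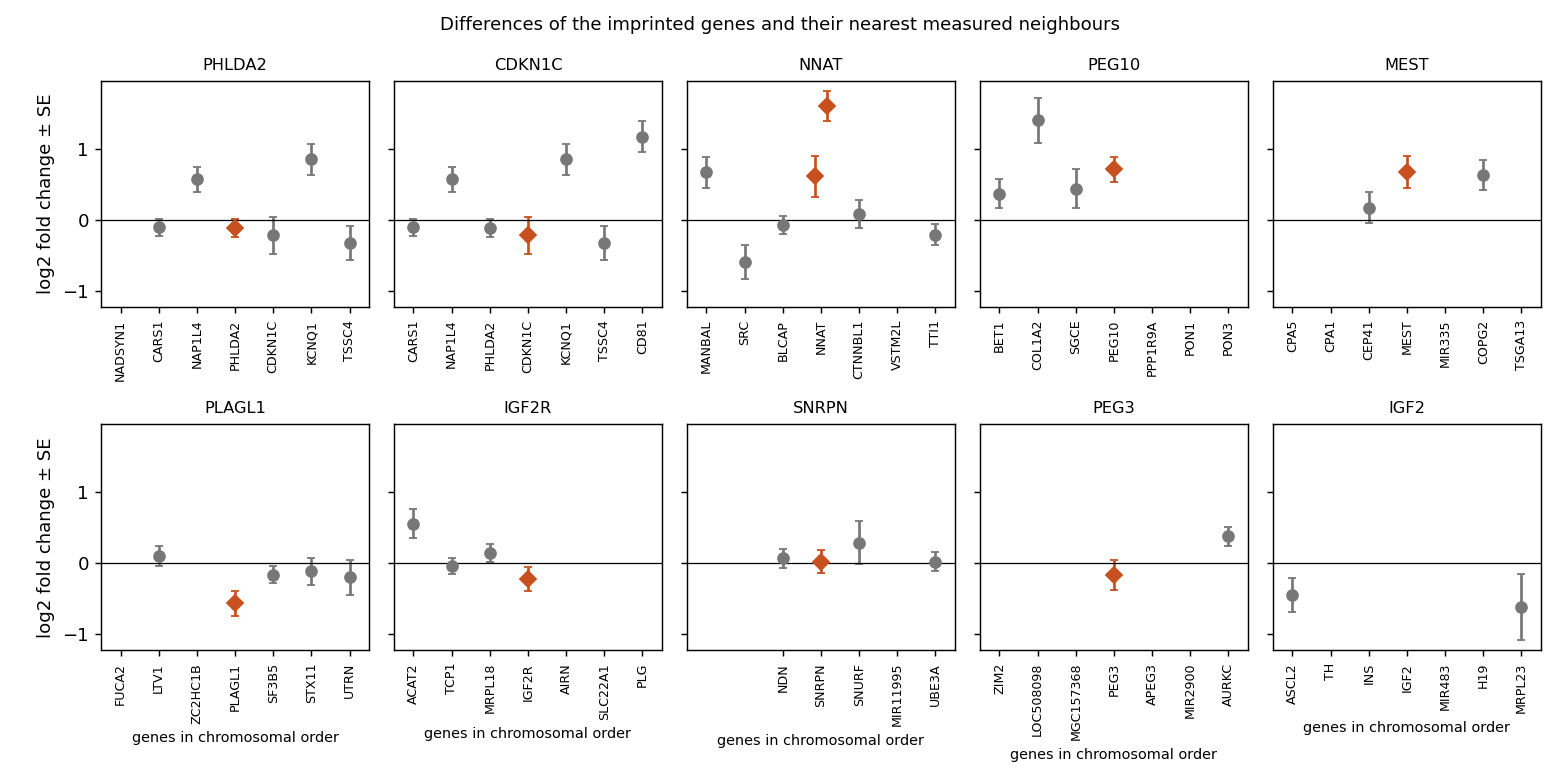
Log2 fold change with SE of each imprinted gene (orange diamonds) and of its nearest genes with a row in the table (grey), in chromosomal order and not to distance; a gene without a mark was not tested because its mean was under 1 FPKM. In the PHLDA2 and CDKN1C panels NAP1L4 and KCNQ1 lie at 0.57 and 0.85, and in the CDKN1C panel CD81 lies at 1.17. PHLDA2 and CDKN1C lie below 0.

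A wider list of 84 genes known as imprinted in mammals had rows for 55, and 26 rows were tested. Which of them are imprinted in bovine embryos was not examined. The list shares genes with the neighbours above, among them CD81, KCNQ1, NAP1L4, COPG2 and SGCE, so these readouts are not independent. None passed. Knockdown libraries lay entirely above the controls for 13 rows and entirely below for 4 (35.1% and 15.6% of all transcripts), and 9 had an unadjusted limma p under 0.05, all higher (14.3% of all transcripts). GATM, SGCE and RB1 passed the level filter only through their knockdown values. All 3 are among the 13, and 2 of them are among the 9. The list median was 0.21 against 0.09 for all transcripts, whose median was higher at low levels, and the list was not matched for level. The 3 largest differences without overlap were in CD81, GNAS and DHCR7. GNAS (NM_181021), which encodes a stimulatory G protein subunit, had 33.8 and 18.4 FPKM in NC and 59.4 and 47.1 FPKM in KDM5_KD (log2 fold change 1.05, SE 0.286, adjusted limma p of 0.167). Its other row, NM_001271771, had 1.61 and 2.49 FPKM against 1.37 and 1.93 FPKM, and the groups overlapped (log2 fold change -0.20). DHCR7, which makes cholesterol, had 14.2 and 9.64 FPKM against 25.0 and 22.0 FPKM (0.94, SE 0.211, adjusted limma p of 0.131). In all 3 genes NC replicate 1 was the higher control.

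Factors that set, protect or read imprints were examined as a list of 49 genes, of which 30 had a row and 29 rows were tested. None passed, and the list median was 0.19. ZAR1, DPPA3, OOEP and NLRP5 of this list are also in the oocyte list. Knockdown values lay entirely above the controls for 10 rows and entirely below for 4, which is near the 35.1% and 15.6% of all transcripts. DPPA3, or STELLA, which protects maternal methylation in the zygote, had 179 and 128 FPKM in NC and 249 and 216 FPKM in KDM5_KD in its larger row NM_001111109 (log2 fold change 0.62, SE 0.183, adjusted limma p of 0.188). Its second row, NM_001111108, had 34.5 and 36.5 FPKM against 32.8 and 40.0 FPKM and overlapped. The de novo DNA methyltransferase gene DNMT3A had 0.641 and 0.629 FPKM in NC and 1.36 and 1.56 FPKM in KDM5_KD (0.59, SE 0.200, adjusted limma p of 0.226), and it passed the level filter only through its knockdown values. CBX1, a heterochromatin protein, had 13.0 and 15.6 FPKM against 18.5 and 24.4 FPKM (0.54, SE 0.191, adjusted limma p of 0.234).

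TRIM28 and EHMT2 were picked after their values were seen. TRIM28, the corepressor through which KRAB zinc finger proteins hold imprints, had 169 and 130 FPKM in NC and 107 and 97.5 FPKM in KDM5_KD. EHMT2, a histone H3 lysine 9 methyltransferase, had 25.5 and 24.9 FPKM against 16.8 and 19.3 FPKM. Both were lower in both knockdown libraries. Their log2 fold changes were -0.53 and -0.46, with adjusted limma p of 0.186 and 0.200. The maintenance methyltransferase DNMT1 had 11.1 and 11.7 FPKM in NC and 14.5 and 16.5 FPKM in KDM5_KD, and ZNF445, a KRAB zinc finger gene of imprint maintenance, 1.69 and 2.15 against 2.34 and 2.33 FPKM. These 2 were likewise picked after their values were seen, and their limma adjusted p were 0.268 and 0.674.

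**Figure D5:**
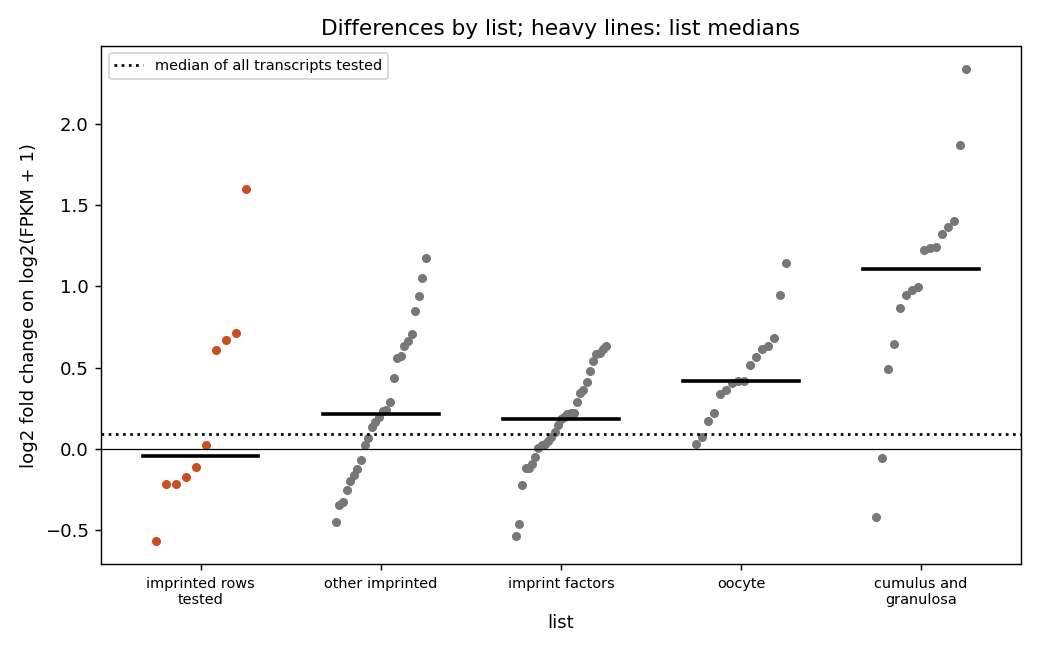
Log2 fold change of every row tested in 5 lists, as single points in rising order with the list median as a heavy line; the dotted line is the median of all transcripts tested, 0.09. The imprinted rows (orange) run from -0.57 to 1.60 around a median of -0.05, and the cumulus and granulosa markers have the highest median, 1.11.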

How the data were processed

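The deposited table gives FPKM values computed by the authors, 1 row per RefSeq transcript, for 4 libraries. The unit is taken from the table's name and values. The submitters' processing notes name Trimmomatic, HISAT2, featureCounts and Cufflinks without roles or versions, and the genome build and annotation are not given in the sources used here. Per the labels' protocols, libraries were made from oligo(dT)-selected, PCR-amplified RNA. Some values are vanishingly small, so FPKM are estimates that divide reads among transcripts.

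Symbols came from RefSeq's ARS-UCD2.0 gene table, by accession without version (14295 of 14517 rows matched). It served for names and gene order only, and no sequences or coordinates were used here. Log2(FPKM + 1) values of the 8970 rows with a mean of at least 1 FPKM were fitted with limma 3.58.1 in R 4.3.3 (lmFit, eBayes with trend, all 4 libraries, no covariate), with Benjamini-Hochberg adjustment over all rows and a threshold of 0.05. An exact permutation test of 2 against 2 libraries cannot go below p = 0.333 and was not used. The limma fit was tested on simulated data. Every member is named. From the lists of other imprinted genes, imprint factors, partners and paralogs, the 3 largest differences without overlap between groups are named. Members and lists were chosen with earlier results of these data known. Figures were made with Python 3.11.15 and matplotlib 3.10.9.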

Additional observations from a re-analysis of the deposited data

How the results depend on the processing

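With 2 libraries per group and unknown read counts, differences of low rows such as IGF2 cannot be resolved. No imprinted row passed in the main analysis, but 1 did (NNAT NM_178323) with robust eBayes, where 1 cumulus marker passed too. Of 144 comparisons of the imprinted rows with an alternative, 136 changed neither sign nor call, 2 passed only there and 6 reversed. SNRPN was at -0.081 with median-ratio scaling, -0.12 after quantile normalization, -0.085 with a common sum, -0.046 without NC replicate 2 and -0.063 without KDM5_KD replicate 1, and CDKN1C at 0.042 without KDM5_KD replicate 1. Leaving out single libraries moved SNRPN between -0.063 and 0.11 and CDKN1C between -0.47 and 0.042. Changes of the level filter, the eBayes options or the replicate block leave every fold change as it was, so no sign could turn there. Nor could a call be lost in any alternative, because no imprinted row passed in the main analysis. Over all transcripts 17 were higher and 8 lower. The number higher was 2 with no filter (1 lower), 11 with a mean of at least 5 FPKM, 8 with a common sum, 6 with eBayes without trend and 37 with robust eBayes. With a replicate block in the fit 8 rose and 4 fell, and no imprinted row passed (0). Deviations of same-numbered libraries correlated at 0.229, but nothing in the labels pairs them. Leaving out 1 library gave 3 to 323 higher and 3 to 17 lower, 0 to 1 imprinted rows, 0 to 3 of the other imprinted list, 0 to 2 imprint factors, 0 to 2 oocyte markers and 0 to 4 cumulus markers. The highest of each came without NC replicate 1, and a lone library is assumed there to vary like the other group. Without KDM5_KD replicate 2, whose treatment entry names KDM6, 0 imprinted rows passed. The causes of these changes were not tested.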

Other observations

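Long noncoding RNAs of imprinted clusters had low values. H19, the maternally expressed neighbour of IGF2, was at 2.30 FPKM in NC replicate 1, listed at 0 in NC replicate 2, and at 0.458 and 1.21 FPKM in KDM5_KD. MEG3 did not exceed 0.134 FPKM and MEG8 did not exceed 0.0400 FPKM in any library, and MEG9 was listed at 0 in all 4. DLK1, a paternally expressed Notch ligand of the MEG3 cluster, reached 0.0342 FPKM in NC replicate 2 and was listed at 0 in the other 3 libraries. DIO3, a thyroid hormone deiodinase gene of the same cluster, had 10.4 and 6.72 FPKM in NC and 10.7 and 9.31 FPKM in KDM5_KD.

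The transcripts with the most similar profiles were found by the Euclidean distance between log2(FPKM + 1) values centred over the 4 libraries. For the main PEG10 row they were NRADD, GNAI3 and IGBP1, at distances of 0.0407, 0.0422 and 0.0524, and 18 transcripts lay within 0.1. For PLAGL1 they were NUDT8, MRPL41 and C16H1orf159, at 0.0371, 0.0764 and 0.0804, with 7 within 0.1. The NNAT row NM_178323 had no transcript within 0.1, and the nearest were SDC1, PLOD1 and TMIE at 0.170, 0.286 and 0.301. In NC these had 0.717 and 0.642, 1.16 and 0.664, and 0.495 and 0.524 FPKM. Like the NNAT row, they passed the level filter only through their knockdown values. Another imprinted gene, GRB10, was among the 3 nearest to PHLDA2, at 0.0158, where 155 transcripts lay within 0.1. A profile over 4 libraries is short, and these distances are descriptions without a test.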
